A study of Mus musculus with 2 samples.

Results

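The 10 genes described here make, sense and remove extracellular adenosine or carry the cyclic AMP (cAMP) signal that adenosine starts: Nt5e, Entpd1, Adora2a, Adora2b, Ada, Adk, Pde4b, Pde4d, Crem and Creb1. They were chosen by symbol for these roles, with earlier results of these data known, and all 10 were found among the 23282 rows of the expression tables. Naïve CD4+ T cells from spleens of wild-type (WT) female C57BL/6 mice aged 7 to 10 weeks were activated with antibodies to CD3 and CD28 and kept for 1 day with TGF-β1, IL-2 and antibodies to IFN-γ and IL-4, which drives them toward induced Treg (iTreg) cells. The culture held either the vehicle, DMSO (control), or 10 μM Tubastatin A (TSA), an inhibitor of the deacetylase HDAC6, and the comparison asked what TSA changes in early iTreg differentiation. There was 1 library of total RNA per condition, so no difference below has a replicate check, and an effect of TSA cannot be told apart from a difference between 2 cultures or library preparations. The sources used here do not give the number of mice behind each culture.

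Adenosine outside the cell is made stepwise: CD39, encoded by Entpd1, takes ATP and ADP to AMP, and CD73, encoded by Nt5e, takes AMP to adenosine. Adenosine binds the receptors encoded by Adora2a and Adora2b, which couple to Gs and switch on adenylyl cyclases, while adenosine deaminase (Ada) and adenosine kinase (Adk) remove it. The cAMP formed activates protein kinase A, which phosphorylates the transcription factor CREB (Creb1), and it is broken down by phosphodiesterases such as PDE4B and PDE4D. Crem encodes CREB relatives, among them the inducible repressor ICER. Treg cells are known for carrying CD39 and CD73 together, and cAMP is known to restrain T cell activation.

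The libraries held 10845868 (control) and 10431890 (TSA) reads on genes, recovered from the deposited log2 values, and 12164 genes had 10 reads or more in either library (the genes tested). QuantSeq primes at the poly(A) tail and reads transcript ends, so a level is given in reads per 1000000 reads on genes (CPM), with no division by length. CPM divides by total reads, while folds use the deposited scaling, so a gene can be slightly higher in CPM with a fold just under 1. Each 95% interval is exact and covers counting error only, that of a level or share within 1 library and that of a fold or ratio between the 2 libraries, since PCR copies could not be told apart. The CD4 T cell markers Cd3e, Cd3g, Cd4, Cd5, Lck and Cd28 were all detected, with 13207 and 12959 reads in sum. Foxp3, the lineage factor of Treg cells, had 1633 reads in the control and 965 in the TSA library. Hdac6, whose protein TSA inhibits, had 146 and 166 reads, a fold (TSA over control) of 1.13 with an interval of 0.896 to 1.42.

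Creb1 was the most abundant of the 10 genes in both libraries and Adora2b the least. In the control library the level of Creb1 was 145 CPM (138 to 152), and Adk and Pde4b followed at 69.8 and 50.6 CPM. Next came Nt5e (37.5 CPM), Pde4d (32.6 CPM) and Crem (28.0 CPM), neighbours whose intervals overlapped. Ada, Entpd1 and Adora2a lay close together at 9.22, 6.27 and 5.16 CPM, and Adora2b was at 1.38 CPM (0.774 to 2.28). In the TSA library the first 3 places were the same, but Pde4d, at 43.2 CPM, stood above Nt5e, at 31.8 CPM, with intervals that did not overlap. Entpd1 stood 8th in the control and 7th here, where its level of 19.8 CPM (17.2 to 22.7) overlapped with that of Crem at 24.4 CPM (21.5 to 27.5) and lay above that of Ada. For scale, 3 reads were 0.277 CPM in the control and 0.288 CPM in the TSA library, so every one of the 10 genes was detected in both.

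**Figure D1:**
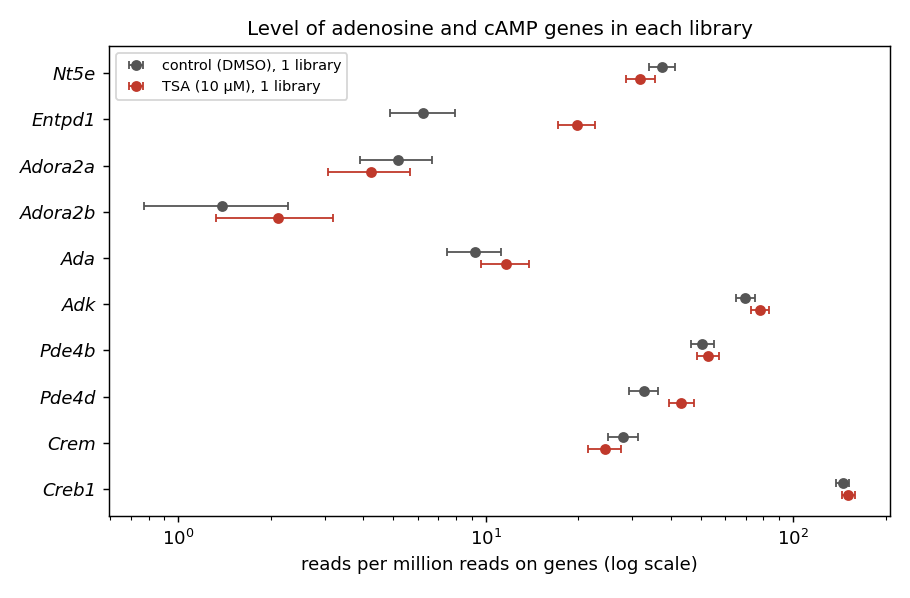
Levels of the 10 genes in CPM (reads per 1000000 reads on genes, log axis), with the control library in grey and the TSA library in red; points are single libraries and bars are exact 95% Poisson intervals, counting error only. Entpd1 stands apart, at 6.27 CPM with DMSO and 19.8 CPM with TSA, while the paired points of Creb1, Pde4b and Adk lie close together.

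Of the 10 genes, 1 (Entpd1) passed 2-fold upward with TSA, and none passed it downward. Among all genes tested, 11.5% were higher and 3.15% were lower by more than 2-fold, so the count of 1 in 10 is near that background. The interval of the fold lay above 1 for 2 genes (Entpd1 and Pde4d), against 28.1% of all genes tested, and below 1 for 2 genes (Nt5e and Crem), against 28.0%. For the other 6 the interval included no change. The median log2 fold change of the 10 genes was 0.04, and that of all genes tested was 0.015. Both shares and the median of the 10 genes were near those of genes in general, and the single value past 2-fold was that of Entpd1.

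**Figure D2:**
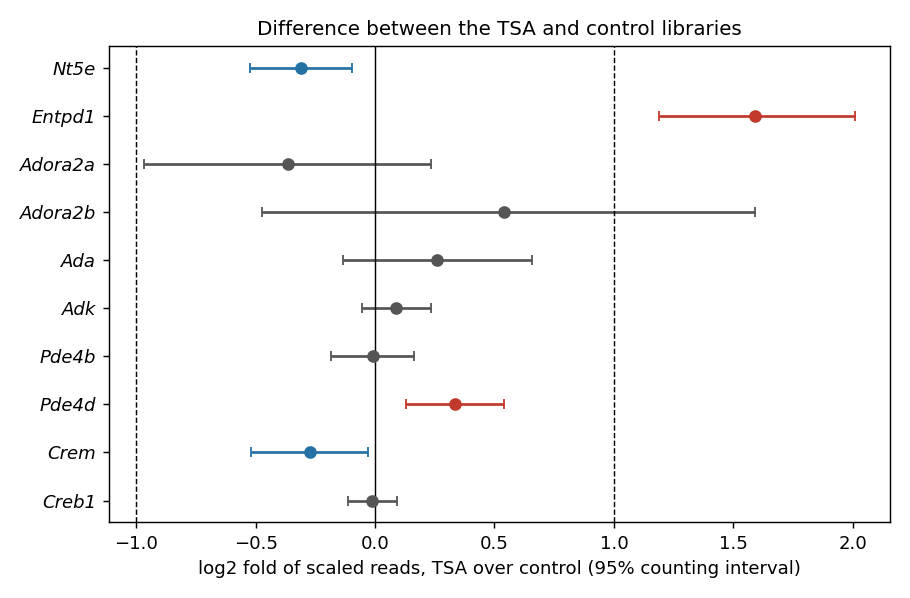
Log2 fold of scaled reads (TSA over control) for each of the 10 genes, with exact 95% counting intervals; red marks intervals above 0, blue intervals below 0, grey intervals that include 0, and dashed lines mark 2-fold. Only the interval of Entpd1 lies wholly beyond 2-fold, and the widest intervals are those of the receptors Adora2a and Adora2b.

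The pair of ectonucleotidases went in opposite directions. Entpd1 was counted 68 times with DMSO and 207 times with TSA (log2 fold change 1.58), a fold of 3.01 (2.28 to 4.03). Its mean normalized count lay between 100 and 500, where 2.65% of 4226 genes were higher and 1.87% were lower by more than 2-fold, and 24 of those 4226 genes had a higher fold change. Nt5e had 407 and 332 reads (log2 fold change -0.31), a fold of 0.808 (0.697 to 0.936). The number of Entpd1 reads for each Nt5e read was thus 0.167 in the control and 0.624 in the TSA library, a ratio that was 3.73 times as high (exact 95% interval 2.71 to 5.17) and that does not depend on how the libraries were scaled. Transcripts of the enzyme that starts the pathway were scarcer than those of CD73 in both cultures, by less in the TSA culture. In bulk RNA, more cells with Entpd1 and more Entpd1 RNA per cell cannot be told apart.

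In the GENCODE M21 annotation of GRCm38 (mm10), Entpd1 is a protein-coding gene on chromosome 19 from 40612366 to 40741602 (plus strand) with 4 coding transcripts, and no annotated gene shares an exon with it. Nt5e lies on chromosome 9 from 88327197 to 88372092 (plus strand) with 1 coding transcript. RefSeq gives Entpd1 a pair of start sites, and the 250 bases before each are shown because Entpd1 carried the main difference. Capitals mark the short CRE motif, the core of the site that CREB binds, which was searched as TGACG on both strands and reads CGTCA where it lies on the other strand. The motif began 135 bases before the upstream start site (chr19:40612116-40612365) and 183 bases before the downstream start site (chr19:40659520-40659769), both on the plus strand of GRCm38.p6.
Entpd1 upstream start: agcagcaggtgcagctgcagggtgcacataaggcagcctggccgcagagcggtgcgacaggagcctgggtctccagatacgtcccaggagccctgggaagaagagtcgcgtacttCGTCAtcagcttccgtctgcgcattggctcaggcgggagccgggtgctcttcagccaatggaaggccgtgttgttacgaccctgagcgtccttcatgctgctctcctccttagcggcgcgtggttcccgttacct
Entpd1 downstream start: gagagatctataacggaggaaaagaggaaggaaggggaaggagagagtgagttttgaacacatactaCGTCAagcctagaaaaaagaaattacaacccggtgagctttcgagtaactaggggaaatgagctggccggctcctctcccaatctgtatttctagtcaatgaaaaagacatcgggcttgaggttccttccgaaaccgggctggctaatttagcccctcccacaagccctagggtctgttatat

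The full palindromic CRE, TGACGTCA, was found in none of the 13 RefSeq windows (250 bases before to 50 after a start) of the 8 genes that had one, against 1.79% of all 32851 windows. The short motif, which the full one contains, was found in 4 of the 13, against 20.8% of all windows. Besides the Entpd1 windows, it was in 1 of 4 windows of Pde4b, 34 bases before the start (chr4:102421493-102421553), and in 1 of 2 windows of Adk, 12 bases before the start (chr14:21052513-21052573), both plus strand. These are shown for comparison with Entpd1, with the motif in capitals. A match says only that these letters are there.
Pde4b: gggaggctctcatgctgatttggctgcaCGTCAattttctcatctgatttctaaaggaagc
Adk: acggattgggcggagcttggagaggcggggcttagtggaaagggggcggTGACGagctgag

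For Nt5e no window held the motif. The study measured Nt5e by qRT-PCR with the primers below, shown because they read another stretch of the transcript than QuantSeq does. They span 191 bases, from base 1751 to base 1941 of the coding transcript of 3995 bases (GENCODE M21), and end 2054 bases before its 3′ end. By design QuantSeq reads lie next to a 3′ end, but the positions of the Nt5e reads were not examined.
Nt5e forward: ggacatttgacctcgtccaat
Nt5e reverse: gggcactcgacacttggtg

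CD39 is also known on other leukocytes such as myeloid cells, so markers of other cell types were examined beside Entpd1. The cultures were started from cells purified with a kit for naïve CD4+ T cells, a step meant to remove these other cells. The 6 myeloid markers had 90 and 75 reads (8.30 and 7.19 CPM), a fold of 0.825 (0.599 to 1.13), and most of those reads were of Fcer1g (62 and 50). The other myeloid markers had few reads: Lyz2 had 6 and 10, Cd14 2 and 4, Itgam 7 and 9, Csf1r 9 and 2, and Adgre1 4 and 0. Of the B cell markers, Cd79a had 1 and 5 reads, Ms4a1 0 and 5, Cd79b 11 and 4, and Cd22 3 and 0. The 2 CD8 T cell markers had 80 and 87 reads, and the 3 NK cell markers 30 and 41, nearly all of Eomes, with Klrb1c at 0 in both. The 4 dendritic cell markers had 13 and 39 reads, a fold of 2.97 (1.55 to 6.07), which came from Flt3 alone, with 0 reads in the control and 33 in the TSA library (at least 10.9-fold higher against a floor of 3 reads in the control, and an exact 95% lower bound of 8.37), whereas Xcr1 had 9 and 6, Itgax 4 and 0, and Siglech none. The 4 red cell and platelet markers had 51 and 72 reads, a fold of 1.40 (0.963 to 2.04), and among them Hbb-bs had 4 and 17 reads, a fold of 4.21 (1.37 to 17.2), and Hba-a1 had 28 in each. The part of Flt3 expression or of other cells in the Entpd1 difference was not tested.

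Other genes that handle nucleotides and adenosine outside the cell are given from a list of 22 genes. Besides enzymes and receptors for nucleotides, the list holds the peptidase gene Dpp4 and the channel gene Panx1. Of the 22 genes, 21 were in the tables and 11 had at least 10 reads in a library. With the pair above included, 4 of these 11 were higher by more than 2-fold and none was lower, against 11.5% and 3.15% of all genes tested. The median log2 fold change of the 11 was 0.68, against 0.02 for all genes tested. The list was chosen with earlier results of these data known, and Entpd1 is 1 of the 4, so neither contrast is an independent result. Enpp1, an ectoenzyme that splits ATP into AMP and pyrophosphate, had 15 and 48 reads, a fold of 3.17 (1.74 to 6.09). Dpp4, which encodes the cell-surface peptidase CD26, had 62 and 139 reads, a fold of 2.22 (1.63 to 3.05). Cd38, an ectoenzyme that consumes NAD, had 3 and 11 reads, and the interval of its fold of 3.63 (0.959 to 20.3) included no change. Cd38 passed the filter of 10 reads through the TSA library alone. Panx1, which forms channels that let ATP out, had 528 and 579 reads, a fold of 1.09 (0.963 to 1.22). In the band of mean normalized counts from 20 to 100, which holds Enpp1, 18.6% of 2368 genes were higher and 4.65% were lower by more than 2-fold.

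Neither adenosine receptor differed between the libraries by more than counting error. Adora2a, the receptor with high affinity for adenosine, had 56 and 44 reads (log2 fold change -0.36), a fold of 0.778 (0.512 to 1.18). Adora2b, the receptor with low affinity, had 15 and 22 reads (log2 fold change 0.51), a fold of 1.45 (0.720 to 3.01). A 2-fold difference in Adora2b was within the interval, so the depth leaves it undetermined. There were 0.268 Adora2b reads for each Adora2a read in the control and 0.5 in the TSA library, and the interval of that change (0.813 to 4.35 times) included none. Adora3 had 5 reads in each library and Adora1 had 0, with exact upper limits of 0.340 CPM in the control and 0.354 CPM in the TSA library. Adora2a lies on chromosome 10 from 75316877 to 75334784 and Adora2b on chromosome 11 from 62248984 to 62266453, both on the plus strand.

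In the list of 14 adenosine receptors, other receptors that signal through Gs or Gi, and G proteins, 11 were tested and none passed 2-fold on the deposited log2 scale, where 11.5% of all genes tested were higher and 3.15% lower. Ptgir, the prostacyclin receptor gene, named after its values were seen, was just short of it at -0.97 with 32 and 16 reads, and its fold of reads without a pseudocount was 0.495 (0.254 to 0.929). The median log2 fold change of the list was -0.08. Gnai2, the main inhibitory G protein subunit of T cells, had the most reads, 7615 and 8694, a fold of 1.13 (1.096 to 1.166). Gnas, which encodes the Gs subunit that couples these receptors to cyclase, had 5590 and 5344 reads, a fold of 0.947 (0.912 to 0.983). In CPM, which divides by total reads, Gnas was at 515 (502 to 529) and 512 (499 to 526), with overlapping intervals. The folds of Gnai2 and Gnas were small next to the 3.01-fold of Entpd1.

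The enzymes that remove adenosine differed by little. Adk, which phosphorylates adenosine back to AMP, had 757 and 813 reads (log2 fold change 0.09), a fold of 1.06 (0.962 to 1.18). Scaled by total reads the fold of Adk was 1.12, with an interval (1.01 to 1.23) just above 1. Ada, which turns adenosine into inosine and whose loss causes immune deficiency, had 100 and 121 reads (log2 fold change 0.26), a fold of 1.20 (0.912 to 1.58). Kinase transcripts were more abundant than deaminase transcripts in both cultures, with 0.132 Ada reads for each Adk read in the control and 0.149 in the TSA library. Ada lies on chromosome 2 from 163726584 to 163750239 (minus strand) and Adk on chromosome 14 from 21052574 to 21448569 (plus strand).

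Of the 28 genes for intracellular adenosine and AMP enzymes and nucleoside transporters, 25 were tested, with 1 higher and 1 lower by more than 2-fold, against 11.5% and 3.15% of all genes tested. Their median log2 fold change was -0.08. Slc28a2, a sodium-driven transporter that takes up purine nucleosides, had 94 and 194 reads, a fold of 2.04 (1.59 to 2.64). Ampd3, an AMP deaminase, had 25 and 10 reads, a fold of 0.396 (0.170 to 0.854). The genes with the most reads were salvage enzymes. Aprt, which salvages adenine, had 3096 and 2200 reads, a fold of 0.704 (0.666 to 0.743), and Hprt, which salvages hypoxanthine and guanine, had 2460 and 2279 reads, a fold of 0.917 (0.866 to 0.972). In CPM, the intervals of Hprt overlapped, at 226.8 (217.9 to 236) and 218.5 (209.6 to 227.6).

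The phosphodiesterases differed from each other. Pde4b had 549 and 551 reads (log2 fold change -0.01), a fold of 0.994 (0.882 to 1.12), and Pde4d had 354 and 451 reads (log2 fold change 0.33), a fold of 1.26 (1.095 to 1.45). There were 0.645 Pde4d reads for each Pde4b read in the control and 0.819 in the TSA library, a ratio 1.27 times as high (1.05 to 1.53). Both genes have many coding transcripts (9 for Pde4b and 12 for Pde4d in GENCODE M21), which these reads of transcript ends do not resolve. Pde4b lies on chromosome 4 from 102087543 to 102607259 and Pde4d on chromosome 13 from 108449948 to 109953461, both on the plus strand.

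Across all 16 cAMP phosphodiesterase genes the reads summed to 2994 in the control and 3003 in the TSA library, a fold of 0.993 (0.944 to 1.05), while the makeup of that sum differed. The Pde4 family (4 genes) went from 1180 to 1419 reads, a fold of 1.19 (1.1 to 1.29), and the other 12 genes from 1814 to 1584 reads, a fold of 0.865 (0.808 to 0.926). Pde7a, which has a high affinity for cAMP, had the most reads in the control and the second most in the TSA library, 919 and 669, a fold of 0.721 (0.652 to 0.797), and made up 30.7% (29.1 to 32.4) and 22.3% (20.8 to 23.8) of the sum. Pde3b, which was the more abundant of these with TSA, had 720 and 747 reads, a fold of 1.03 (0.926 to 1.14). Pde4a, singled out after its values were seen, had 231 and 364 reads, a fold of 1.56 (1.32 to 1.85), and made up 7.72% (6.79 to 8.73) and 12.1% (11 to 13.3) of the sum. Pde4d made up 11.8% (10.7 to 13) and 15.0% (13.8 to 16.4), while Pde4b made up 18.34% and 18.35%. In the list, 9 genes were tested, and 1 was past 2-fold downward, against 3.15% of all genes tested: Pde8b, with 33 and 11 reads and a fold of 0.330 (0.151 to 0.670).

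The enzymes that make cAMP were examined next to those that break it down. The 10 adenylyl cyclase genes had 530 and 686 reads in sum, a fold of 1.28 (1.14 to 1.44). Of the 4 tested, 1 was past 2-fold upward, against 11.5% of all genes tested, and the intervals of 2 included no change. The gene past 2-fold was Adcy9, with 25 and 80 reads and a fold of 3.17 (2.0 to 5.18). Adcy6, named after its values were seen, had 91 and 143 reads, a fold of 1.56 (1.19 to 2.05). Adcy7, the cyclase with the most reads, had 270 and 290, a fold of 1.06 (0.898 to 1.26), and Adcy3 had 141 and 157, a fold of 1.1 (0.873 to 1.39). Relative to the libraries' other genes, cyclase transcripts were thus higher in sum, while the interval of the phosphodiesterase sum included no change.

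**Figure D3:**
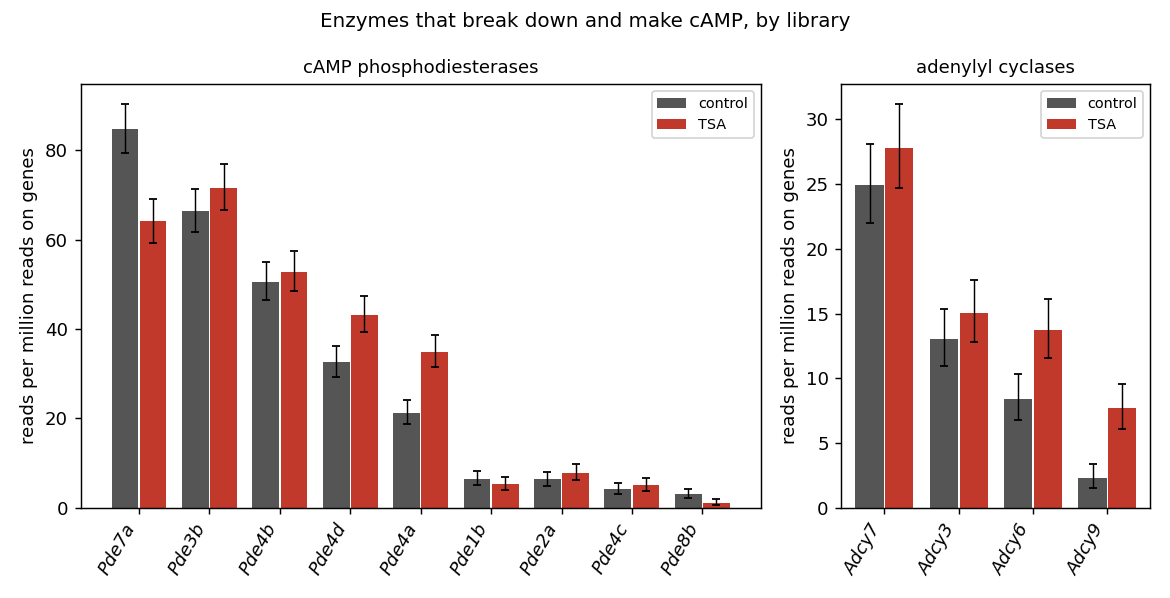
CPM (reads per 1000000 reads on genes) for the tested cAMP phosphodiesterases (left) and adenylyl cyclases (right), control in grey and TSA in red, with exact 95% Poisson intervals for counting error; each bar is 1 library and both axes start at 0. Pde7a is lower and Pde4a and Pde4d are higher in the TSA library while Pde4b is level, and Adcy9 shows the widest gap of the cyclases relative to its level.

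The kinase that cAMP activates differed little. The next list held protein kinase A subunits, inhibitors and anchors, the cAMP-activated exchange factors (Epac) and the kinase gene Csk. Of its 19 genes 16 were tested, and 1 of them was past 2-fold upward, against 11.5% of all genes tested. The median change was 0.01 on the log2 scale. The 6 protein kinase A subunit genes together had 6862 and 6868 reads, a fold of 0.991 (0.958 to 1.025). Prkar1a, a regulatory subunit, had the most reads, 4274 and 4201, a fold of 0.973 (0.933 to 1.02), and the anchor Akap13 had 2703 and 2950, a fold of 1.08 (1.03 to 1.14). Rapgef4, which encodes Epac2, was the gene past 2-fold, with 4 and 16 reads and a fold of 3.96 (1.28 to 16.3).

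Creb1 and Crem differed by little or not at all. Creb1 had 1573 and 1577 reads (log2 fold change -0.01), a fold of 0.993 (0.925 to 1.07), the narrowest interval of the 10 genes. Crem had 304 and 254 reads (log2 fold change -0.27), a fold of 0.827 (0.698 to 0.981). Scaled by total reads, the interval of Crem (0.732 to 1.03) included no change. There were 0.193 Crem reads for each Creb1 read in the control and 0.161 in the TSA library, and the interval of that change (0.693 to 1.002 times) just included none. Crem has 32 coding transcripts with 21 different ends in GENCODE M21, so full-length CREM and ICER are not separated in these values. A non-coding gene on the opposite strand, Gm6225, overlaps Crem exons and had 1 and 0 reads. Creb1 lies on chromosome 1 from 64532645 to 64604548 (plus strand).

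All 11 genes of the list of CREB family members, coactivators and their kinases were tested, and none passed 2-fold, against 11.5% higher and 3.15% lower among all genes tested. The median log2 fold change was -0.03. Crebbp, which encodes the acetyltransferase CBP that phosphorylated CREB recruits, had 1741 and 1394 reads, a fold of 0.793 (0.738 to 0.851). Among 16 genes known as CREB targets, which include Crem, Pde4b and Pde4d themselves, 14 were tested and 1 passed 2-fold upward, against 11.5% of all genes tested, with a median of -0.06. Fos, an immediate-early gene, was the gene past 2-fold, with 4 and 12 reads and an interval (0.90 to 12.6) that included no change. Fos, too, was tested through the TSA library alone. Nr4a3 and Nr4a1, orphan nuclear receptors induced by T cell receptor and cAMP signals, had the most reads over both libraries together: 4286 and 5479 for Nr4a3, a fold of 1.27 (1.22 to 1.32), and 2285 and 2408 for Nr4a1, a fold of 1.04 (0.985 to 1.11). Junb, an AP-1 subunit gene named after its values were seen, was close behind with 2545 and 2135 reads, a fold of 0.831 (0.784 to 0.880). Of the 14 intervals 3 lay above 1 and 5 below it, against 28.1% and 28.0% of all genes tested.

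Over all 8 lists, 97 genes were tested, of which 8 were higher and 2 were lower by more than 2-fold. The 8 were Entpd1, Enpp1, Cd38, Dpp4, Slc28a2, Adcy9, Rapgef4 and Fos, and the 2 were Ampd3 and Pde8b. Among all genes tested, 11.5% were higher and 3.15% lower past the same threshold. The median log2 fold change of the 97 was 0.02, near that of all genes tested. Of the 10 list genes past 2-fold with the main filter, 4 belong to the extracellular list, which holds 11 of the 97 genes tested. Cd38 is 1 of these 4, and its interval included no change. The lists were chosen with earlier results of these data known, so this share was not tested.

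**Figure D4:**
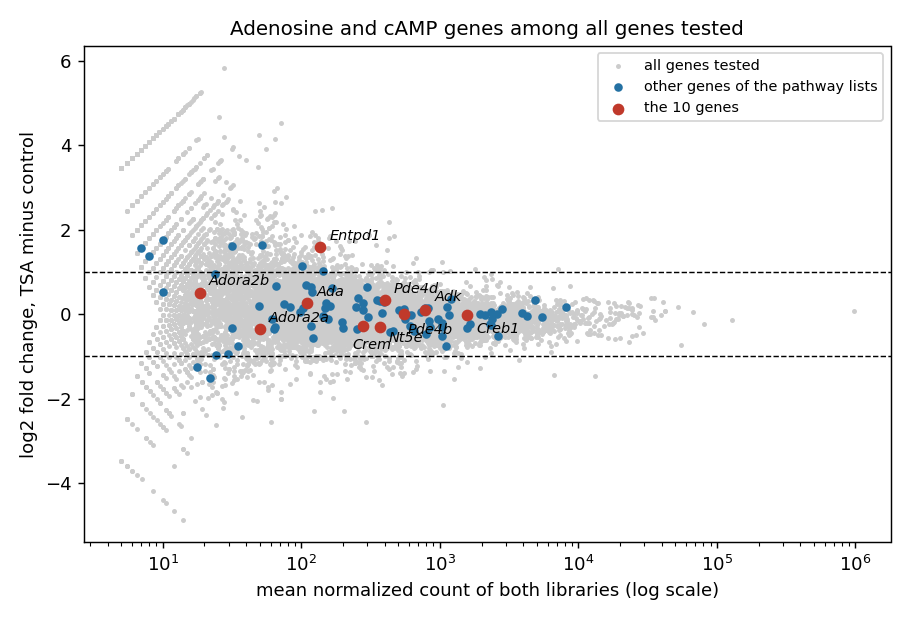
Log2 fold change (TSA minus control) against the mean normalized count of both libraries (log axis) for all 12164 genes tested in grey, the other tested genes of the 8 pathway lists in blue and the 10 genes in red; dashed lines mark 2-fold. Of the 10, Entpd1 is the point beyond a dashed line, and the spread of all genes widens toward low counts.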

How the data were processed

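Total RNA of 1 control and 1 TSA culture was made into QuantSeq libraries, which read transcript ends. Values were deposited by the authors per gene and library, as log2 of a normalized count plus 1 (3 decimals). Their processing notes name Bowtie2, bedtools and mm10; the methods name ExDEGA, and versions, annotation, counting strand and scaling method are not given in the sources used here. The unit was found from the values: back-transformed, they fell on steps of 1.005 (control) and 0.995 (TSA) normalized counts per read, and 99.7% and 99.1% of values of 1 to 300 reads lay within 0.1 of a whole read. Reads of higher genes are approximate. In the control, 1940 rows without a read were listed slightly above 0 and read as 0.

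The log2 fold change is the TSA value minus the control value, which holds a pseudocount of 1 and understates changes of low genes. Folds printed with an interval are of scaled reads without a pseudocount, with exact Clopper-Pearson 95% intervals. CPM carries exact Poisson intervals, shares exact binomial intervals and ratios of 2 genes exact conditional intervals. A gene counted 10 times or more in either library was tested for a change past 2-fold, the threshold of the study, and no p-value was computed with 1 library per condition. Beside the 10 genes, every gene of the lists past 2-fold and the 2 genes of each list with the most reads over both libraries were named, with Hdac6 and Foxp3. The genes, lists and markers were chosen with earlier results of these data known. Rows with a repeated symbol (79) entered counts over all genes and no list, and 1 listed gene (Acp3) was not matched. A single B cell marker is not reported here.

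Gene positions are from GENCODE M21 (GRCm38), and promoter windows from RefSeq (GRCm38.p6), where 8 of the 10 genes matched. Scripts ran in Python 3.11.15 with numpy 2.4.6, scipy 1.17.1, pandas 2.3.3 and matplotlib 3.10.9 and were tested on simulated data. Alternatives covered scaling, pseudocount, low-count filter and threshold.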

Additional observations from a re-analysis of the deposited data

How the results depend on the processing

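No paired analysis was possible because each condition had a single library, for which reason none could be left out either. Entpd1 was the single gene of the 10 past 2-fold under all 12 alternatives, and its log2 fold change lay between 1.52 and 1.66 over 5 scalings and 2 pseudocounts. Over those 7 alternatives 8 of the 10 genes kept their direction, while Pde4b (-0.01 to 0.08) and Creb1 (-0.01 to 0.07) were on the other side of 0 under 3. Scaling by total reads moved the median of all genes to 0.085. With a pseudocount of 0.1 the number of list genes past 2-fold was 11 in place of 10, and with one of 5 it was 7. The numbers of genes past 2-fold depended on the filter and the threshold. Without a filter there were 2817 higher and 1200 lower genes, and 24 of the pathway lists. With at least 10 reads in both libraries 524 were higher and 223 lower, and 7 of the pathway lists were past 2-fold. With a mean of 50 or more normalized counts the numbers were 278, 141 and 4 of the lists, and Adora2b was then not tested. At 1.5-fold they were 2279, 1014 and 20, and with the whole interval beyond 2-fold 605, 99 and 2. Depth limits Adora2a, Adora2b and the list genes under about 50 reads.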

Other observations

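Genes of the lists outside the naming rule were singled out after their values were seen. Among receptors that raise cAMP, the prostaglandin E2 receptor genes differed in opposite directions: Ptger2 (EP2) had 143 and 98 reads in the control and TSA libraries, a fold of 0.679 (95% counting interval 0.519 to 0.884), and Ptger4 (EP4) had 1060 and 1208, a fold of 1.13 (1.04 to 1.23). Of the receptors for extracellular ATP, P2rx7 had 44 and 26 reads, a fold of 0.585 (0.346 to 0.972), and P2rx4 had 50 and 81, a fold of 1.60 (1.11 to 2.33). Alpl, an ectophosphatase that can also take AMP to adenosine, had 82 and 133 reads, a fold of 1.61 (1.21 to 2.14).

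Inside the cell, the cytosolic nucleotidase genes Nt5c (1058 and 1365 reads, a fold of 1.28, 1.18 to 1.39) and Nt5c2 (329 and 411, a fold of 1.24, 1.07 to 1.43) were higher in the TSA library, and Nt5c3b (283 and 225, a fold of 0.787, 0.658 to 0.941) was lower. Ahcy, whose enzyme releases adenosine from S-adenosylhomocysteine, was lower, with 1212 and 851 reads and a fold of 0.695 (0.636 to 0.760). Among the CREB partners, Atf1 had 519 and 397 reads, a fold of 0.757 (0.663 to 0.865), and the coactivator gene Crtc1 had 98 and 142, a fold of 1.44 (1.1 to 1.88). None of these differences has a replicate check, and what they mean was not tested.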
